A study of Mus musculus with 20 samples.

Results

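Amacrine cells are the inhibitory interneurons of the inner retina, and 13556 of the 79009 deposited cells carried that name. Members were taken by the authors' annotation "Amacrine Cells" in all 20 libraries, and the 98 cells annotated as starburst amacrine cells were kept apart. Each library held between 62 (P5 MEIS1 2) and 6115 (P2 control 1) members. Retinal explants, pieces of retina kept in culture, came from wildtype CD1 mice of stated age postnatal day 2 (P2) or 5 (P5). They were electroporated with a GFP control construct, with MEIS1, with MEIS2 or with both together, and GFP-positive cells were isolated. At each age the controls made up 4 libraries, and MEIS1, MEIS2 and the combination 2 each. The series design text names other factors in the constructs and gives days of treatment, so the titles and the library names were followed. The treatment field of the labels names MEIS1 for all 4 single-construct libraries at P2 and MEIS2 for all 4 at P5, so at each age it disagrees with 2 of the titles. The labels do not say whether libraries came from separate litters or cultures, so p-values measure the spread between these libraries, which may be technical.

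Amacrine cells are born from retinal progenitors, and Ptf1a and Prdm13 are transcription factors known to direct this choice. Most mature amacrine cells release GABA or glycine. GABA is made by the glutamate decarboxylases Gad1 and Gad2, and glycinergic cells carry the glycine transporters Slc6a9 and Slc6a5. Slc32a1 loads either transmitter into vesicles, and Tfap2a and Tfap2b are transcription factors found broadly in amacrine cells. MEIS1 and MEIS2 are homeodomain factors, and Meis2 is a known marker of many GABAergic amacrine cells.

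The 6 marker genes lie on mm10 at these GENCODE vM21 positions, all as protein-coding genes. Tfap2a is at chr13:40715302-40738376 on the minus strand and Tfap2b at chr1:19208914-19238576 on the plus strand. Gad1 is at chr2:70553072-70602014, Gad2 at chr2:22622205-22693874, Slc32a1 at chr2:158610767-158615748 and Slc6a9 at chr4:117834506-117875198, all on the plus strand. The 250 bases upstream of each RefSeq transcript start (GRCm38.p6; 9 promoters for the 6 genes) were searched on both strands for TGACAG, a core bound by MEIS factors, and GCCNNNGGC, a core bound by TFAP2 factors. No marker promoter held TGACAG, which stood in 15.9% of all 32851 promoters. GCCNNNGGC stood in 13.7% of all promoters and in 1 of the 9, that of Gad2. Gad2 is shown because it was the marker with 2 matches and the decarboxylase detected in the most amacrine cells. The stretch, chr2:22622077-22622204 on the plus strand, ends just before the GENCODE gene start, and capitals mark the match within it.

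Gad2 upstream: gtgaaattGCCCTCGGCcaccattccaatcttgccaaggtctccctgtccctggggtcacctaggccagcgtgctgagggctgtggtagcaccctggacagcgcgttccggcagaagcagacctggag

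The series differed in depth and in quality. Median UMIs (molecules counted) per amacrine cell ranged from 1092 in P2 MEIS2 2 to 17719 in P2 MEIS2 1, and summed amacrine UMIs from 710033 to 50317436. P2 MEIS2 2 stood apart, with a median mitochondrial share of 0.368% against 4.41% as the median of all libraries. In P5 control 1, P5 MEIS1 1 and P5 MEIS2 1, between 81.6% and 90.6% of amacrine cells carried at least 3 UMIs of rod markers, against 3.23% to 31.6% in the other 17 libraries. Their median mitochondrial shares were 15.2%, 14.3% and 11.5%. The start of the cell names differed from the library title in 10 of 20 libraries, all 8 controls and both P2 combinations. In P2 control 1 it named a combination and in P2 combination 2 a control, and in the other 8 it gave another replicate number, so fits that use replicate numbers as a block rest on numbers that are uncertain. Among the members, 38 cells shared a barcode with an amacrine cell of another library.

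The label was checked against the markers in counts summed per library and type, given as CPM, UMIs scaled to the same total in each sum. The authors named cells from the same counts, so these levels are a description with no test. A type entered where a library held at least 20 of its cells, which left out horizontal cells, and the closely related starburst cells were read separately. Rods, progenitors and neurogenic cells entered in 20 libraries, bipolar cells in 12, cones in 7 and Müller glia in 4. In many libraries the highest type is thus read among fewer types, and medians of cones and Müller glia rest on few libraries. Tfap2b had a median of 445 CPM in amacrine cells (range 209 to 907) and 13.8 CPM in cones, the next type. Starburst cells, with 2 libraries, had a median of 557 CPM. Tfap2a had 181 CPM (41.7 to 517) against 13.6 CPM in cones. Both were highest in amacrine cells in 20 of 20 libraries, among the types that entered. In pooled counts, Tfap2b was at 715 CPM in amacrine cells, 482 CPM in starburst cells and 452 CPM in the 55 horizontal cells. Tfap2a was at 334, 133 and 64.0 CPM in the same order.

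Of the transmitter genes, Gad2 had a median of 395 CPM (119 to 1249) against 25.6 CPM in progenitors, the next type. Slc32a1 had 82.5 CPM (19.96 to 592) against 4.26 CPM in cones, and both were highest in amacrine cells in 20 of 20 libraries. The highest Slc32a1 value was that of the shallow library P2 MEIS2 2. Gad1 had 28.7 CPM against 1.23 CPM in rods, with amacrine values from 0.356 to 155 CPM, and was highest in 19 of 20 libraries. Pooled over libraries, Gad1 was at 37.9 CPM in amacrine cells, 242 CPM in starburst cells and 45.01 CPM in horizontal cells. In the same order, Slc32a1 was at 87.1, 114 and 59.2 CPM, and Gad2 at 574, 15.5 and 109 CPM.

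Slc6a9 went least with the label. Its median was 57.9 CPM in amacrine cells and 49.0 CPM in rods, and the amacrine level was above every other type in 10 of 20 libraries. Pooled over libraries the order was reversed, at 32.8 CPM in amacrine cells and 45.4 CPM in rods. Slc6a5, the neuronal glycine transporter, had 17.4 CPM in amacrine cells and 0.198 CPM in progenitors, the next type, and was highest in 19 of 20 libraries. The exception, P5 combination 1, had no Slc6a5 UMI in its amacrine cells. In pooled counts Slc6a5 was at 25.9 CPM in amacrine cells, 5.53 CPM in starburst cells (5 UMIs) and 2.37 CPM in horizontal cells (1 UMI).

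**Figure D1:**
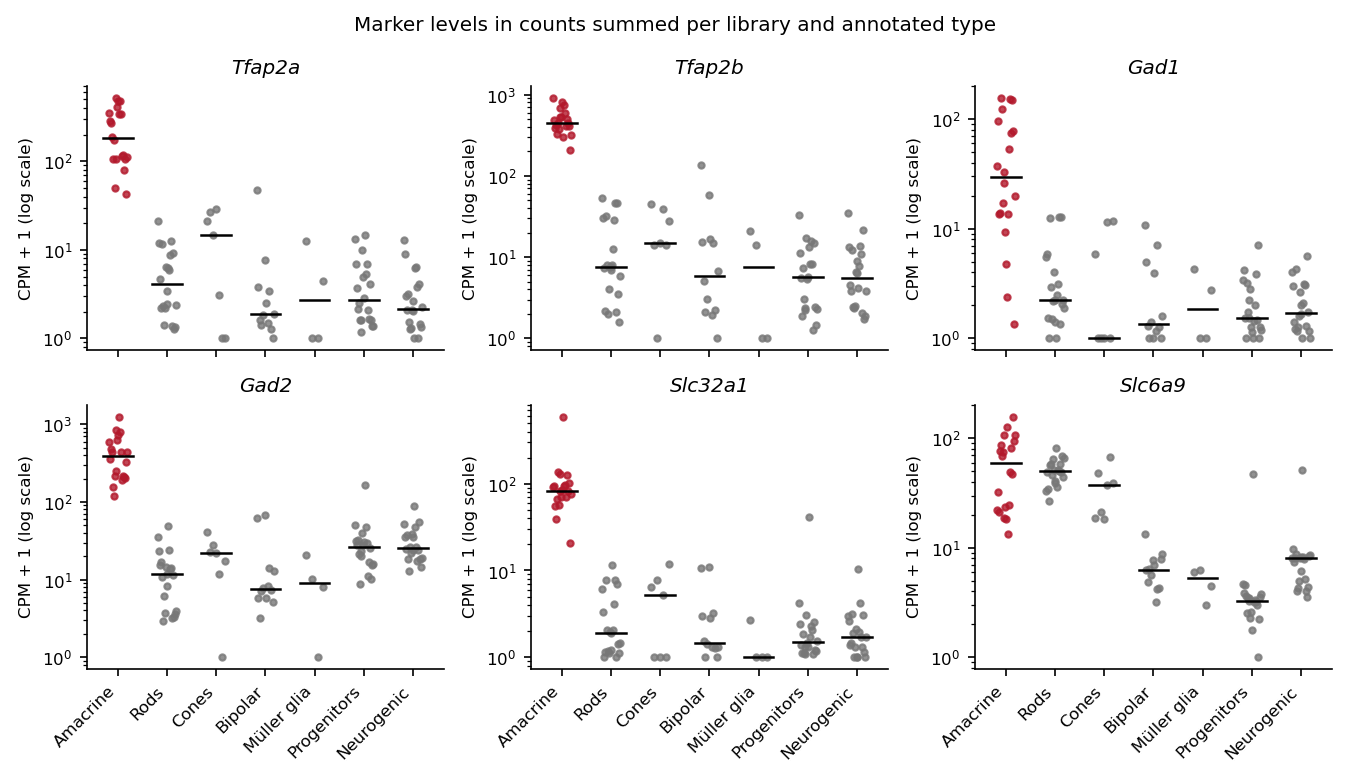
Levels of the 6 marker genes by annotated type, as CPM + 1 on a log axis; each point is 1 library in which the type had 20 cells or more, and the bar is the median. The median of amacrine cells (red) stands above those of the 6 other types drawn, which do not include starburst or horizontal cells, and Slc6a9 overlaps rods (medians 57.9 and 49.0 CPM).

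Genes with an amacrine median of at least 50 CPM were ranked by the ratio of that median to the next type other than starburst cells, with 1 CPM added to both, and the first 20 were read. Prdm13 stood at 195 CPM against 1.11 CPM in rods, Tfap2c at 125 against 1.70 CPM in Müller glia, and Ptf1a at 122 against 1.67 CPM in Müller glia. Ptf1a was highest in amacrine cells in 19 of 20 libraries, and the other 19 genes in 20 of 20, starburst and horizontal cells not counted. The 20 were picked by their ratio over these same libraries, so such counts follow from the ranking and are no independent support. The share of all genes that were highest in every library is not given here. Starburst medians were above those of amacrine cells for 4 of the 20, Anks1b (4264 and 1729 CPM), Kcnip1 (348 and 167), Cacng3 (239 and 177) and Tfap2b (557 and 445). Of the 8 specification factors, the list that holds Ptf1a and Prdm13, those 2 had their highest median in amacrine cells, and 4 were highest there in no library. Asic2, an acid-sensing ion channel, stood at 2065 CPM against 26.4 CPM in cones. The glutamate transporter Slc1a6 stood at 97.3 against 0.870 CPM in Müller glia, and Glra2, a glycine receptor subunit, at 161 against 4.26 CPM in cones. The neuronal RNA-binding factor Elavl3 (412 against 15.7 CPM in neurogenic cells), the helix-loop-helix factor Nhlh2 (324 against 10.8 CPM in cones) and the POU-domain factor Pou3f1 (125 against 4.33 CPM in Müller glia) were among the 20. Of the 20, 5530401A14Rik and Gm11418 lie within Asic2 on the opposite strand, so their levels are uncertain, since how the counting treated strand is not given in the sources used here. With every cell thinned to 1500 UMIs, 12 of the 20 stayed in the list.

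Among the lists read beside the markers, 8 of 9 pan-amacrine factors had their highest median in amacrine cells, against 13.9% of all 23260 genes. That share covers genes of any level, while all 9 factors and 10 of 25 receptor genes had an amacrine median of at least 50 CPM. A share matched for level is not given here. Pax6, a homeodomain factor kept by amacrine cells, had 811 CPM against 329 CPM in progenitors. In pooled counts Pax6 was at 908 CPM in amacrine cells, 631 CPM in starburst cells, 410 CPM in horizontal cells and 323 CPM in progenitors. Of 25 inhibitory and glutamate receptor genes, 14 were highest in amacrine cells, among them the AMPA receptor subunit Gria4 (1608 against 241 CPM in progenitors) and the kainate receptor subunit Grik2 (865 against 80.8 CPM in neurogenic cells). Of 10 genes for other transmitters 2 were, both at under 1 CPM.

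Markers of other types were read in the same way. None of the 8 rod, 6 cone, 8 progenitor, 9 bipolar, 7 Müller glia, 10 cell cycle or 6 microglia genes had its highest median in amacrine cells, although the 8 rod markers summed to between 29.5 and 1879 CPM there by library. Of 9 ganglion cell genes 2 were highest in amacrine cells, the neurofilaments Nefm (23.3 CPM) and Nefl (8.70 CPM). Pou4f2, which defines ganglion cells, was at 0 in every library, and Slc17a6 and Thy1 had medians of 0. Chat, which defines starburst cells, had 0.203 CPM over all amacrine cells pooled and 250 CPM in the starburst cells. Lhx1 and Onecut1, horizontal cell factors, had 0.823 and 1.59 CPM pooled, against 168 and 68.7 CPM in the 55 horizontal cells. Of the 7 horizontal genes 4 had their highest median in amacrine cells, starburst and horizontal cells not counted: Tfap2b, Onecut2 (113 CPM), Nefl and Lhx1. Of these 4, Tfap2b and Nefl were highest in every library. The 7 summed to between 402 and 1204 CPM, Tfap2b included. A single gene each of the neurogenic (Gadd45a, 144 CPM), vascular (Cldn5, 23.4 CPM) and starburst (Slc18a3, 0.0397 CPM) lists also had a median above those of the types compared. Pooled, Slc18a3 was at 127 CPM in starburst cells, 0.176 CPM in amacrine cells and 0.202 CPM in rods. The part of other cells in these levels was not tested. GFP was higher in amacrine cells than in rods of the same library in 11 of 20 libraries.

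The authors' clustering split the members into 5 clusters, numbered 6, 7, 9, 13 and 17, and the genes below describe those clusters without a test. Cluster 6 (4908 cells, 36.2%) carried the helix-loop-helix factor Ebf1 at a median of 400 CPM, Ebf3 at 162 CPM, Nfix, a nuclear factor I gene, at 168 CPM, and Slc6a9 at 96.9 CPM. Meis2 stood there at 413 CPM. Cluster 7 (3912 cells, 28.9%) carried Tfap2b at 898 CPM, Tfap2a at 519 CPM, the LIM homeodomain factor Lhx9 at 232 CPM, Slc6a5 at 28.2 CPM and Meis2 at 3343 CPM.

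Cluster 13 (2192 cells, 16.2%) carried the factors of amacrine birth, Ptf1a at 565 CPM, Prdm13 at 445 CPM and Neurod4 at 817 CPM. The same cluster had Cldn5, better known from vessel walls, at 161 CPM, and Gad1 at 0 CPM. Clusters 9 (2050 cells, 15.1%) and 17 (494 cells, 3.64%) were the Gad1-rich clusters, with 237 and 192 CPM. With Gad2 counted too, no cluster was without a decarboxylase. Among thinned cells pooled over libraries, 57.2% in cluster 6 and 52.8% in cluster 7 had a UMI of Gad1 or Gad2. The shares were 44.85%, 41.0% and 65.98% in clusters 9, 13 and 17. A UMI of Slc6a9 was found in 6.99%, 1.145%, 1.3%, 6.755% and 1.649% of clusters 6, 7, 9, 13 and 17. Cluster 9 stood apart by Erbb4 (368 CPM) and the GABA receptor subunit Gabrb1 (131 CPM), and cluster 17 by the adhesion molecule Cntn5 (1832 CPM) and the factor Maf (352 CPM). Median GFP per cell was 3 and 4 UMIs in clusters 9 and 17, against 33, 13 and 50.5 UMIs in clusters 6, 7 and 13. Median mitochondrial shares were 8.64% and 8.75%, against 3.14% to 4.45%.

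**Figure D2:**
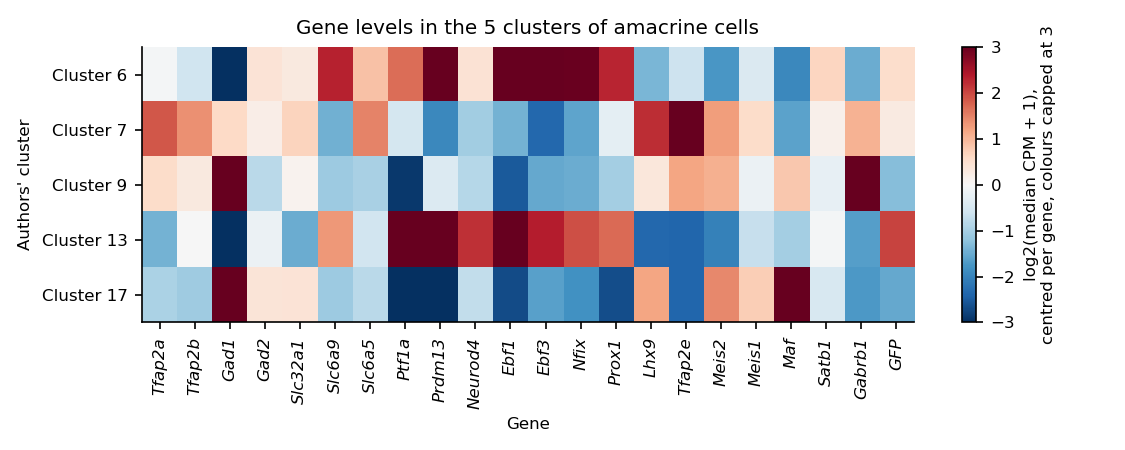
Median CPM of named genes in the authors' 5 amacrine clusters over libraries with at least 20 cells of the cluster, as log2(CPM + 1) centred per gene, with colours capped at 3. Ebf1, Ebf3 and Slc6a9 are high in clusters 6 and 13, Gad1 in clusters 9 and 17, and Meis2 in clusters 7, 9 and 17.

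Cluster makeup varied between libraries of a group. Among P2 controls, cluster 6 held 34.6%, 31.5%, 44.2% and 46.2% of amacrine cells, and among P5 controls 24.5%, 40.6%, 40.0% and 71.6%. Cluster 13 held 51.0% in P5 control 3 and 7.16% to 9.09% in the other P5 controls, against 11.07% to 28.5% in P2 controls. For cluster 6 the groups overlapped. For cluster 13, 3 of the 4 P5 controls lay below every P2 control and P5 control 3 above every one. These shares were not tested, since the clusters were built on the genes compared here.

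For transmitter type, each cell was thinned to 1500 UMIs so that depth could not set the share of cells with a UMI. Shallower cells dropped out, which left 12945 amacrine cells, 6038 of them from P2 control 1. A UMI of Gad1 or Gad2 (a GAD-positive cell) was found in 26.0% to 70.8% of amacrine cells by library, against 0.114% to 5.83% of rods. In progenitors it was 3.17% to 20.5% at P2 and 0.524% to 3.26% at P5, below the amacrine share of the same library in 20 of 20. Gad2 was detected in 46.8% of thinned amacrine cells (exact 95% interval 45.9% to 47.65%) and Gad1 in 7.18% (6.74% to 7.63%); intervals cover counting error only. Slc32a1 was detected in 12.4% of amacrine cells and 0.472% of rods. The median depths before thinning were 7035 UMIs for these amacrine cells, 4965 for rods and 12598 for progenitors.

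The glycine transporters behaved differently from each other. Pooled over libraries, Slc6a9 was found in 4.22% of thinned amacrine cells (3.88% to 4.58%), 6.76% of rods and 0.412% of progenitors. Such pooled shares mix libraries and ages in unequal parts. By library, the amacrine share was 1.83% to 13.1% at P2 and 4.08% to 16.9% at P5. At P2 the Slc6a9 share in amacrine cells was above that of rods in 1 of 10 libraries and at P5 in 7 of 10. It was above that of progenitors in 20 of 20 libraries, and the rods' share also stood above the progenitors'. Read against rods, the P2 share was at or below that of rods in 9 of 10 libraries. Slc6a5 was found in 3.73% of amacrine cells (3.41% to 4.07%) and 0.0225% of rods. In P2 control 1, 58.7% of the 303 Slc6a5-positive cells were also GAD-positive, close to the 55.2% of all its amacrine cells.

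Without thinning, 9207 amacrine cells (67.9%) had a UMI of Gad1 or Gad2 and none of Slc6a9, 348 (2.57%) the reverse, 1773 (13.1%) both, and 2228 (16.4%) neither. Genes of rarer amacrine types were sparse. After thinning, Th, the dopamine enzyme, had a UMI in 5 of 12945 cells, Vip in 3, Chat in 6 and Nos1 in 9. The vesicular glutamate transporter Slc17a8 had 0.178% in amacrine cells and 0.177% in rods. Calb2, a calcium-binding protein, was found in 10.3% against 0.713% in rods, and Tac1, a peptide precursor, in 1.41% against 0.365%.

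The next comparison asked how transmitter classes differ within a library. Cells with Gad1 or Gad2 and without Slc6a9 (the GAD class) were set against cells with Slc6a9 and without Gad1 or Gad2 (the Slc6a9 class). The 5 control libraries with at least 20 cells of each class were used: P2 controls 1 to 3 and P5 controls 1 and 2. The Slc6a9 class held 47, 21, 23, 91 and 25 cells and the GAD class 4611, 461, 636, 401 and 69. Counts were summed per class and tested in edgeR with the library as a block, leaving out the 3 defining genes. Of 7384 genes, 328 (4.44%) passed at an adjusted p (Benjamini-Hochberg) under 0.05, 217 (2.94%) higher in the GAD class and 111 (1.5%) lower. Since clusters and classes overlap, this is no independent measure of the clusters. The Slc6a9 class of all 8 controls drew 52.8% of its cells from cluster 6 and 28.2% from cluster 13, against 34.3% and 10.98% of the GAD class.

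The factors Lhx9 and Meis2 and the transporter Slc6a11 were higher in the GAD class. Lhx9 stood at 183, 95.6, 107, 65.3 and 83.6 CPM in the GAD class and at 31.4, 11.7, 9.99, 4.07 and 4.84 CPM in the Slc6a9 class of the same libraries. Its log2 fold change was 3.15 (SE 0.31, edgeR adjusted p = 0.00028). It was higher in 5 of 5 libraries, which the rule for naming genes in this contrast required. Of called genes with mean log2 CPM of at least 5, 173 of 211 higher and 77 of 98 lower ones had 1 sign in every library. The values of Lhx9 in the 2 classes did not overlap, and how many other genes did not overlap is not given here. Slc6a11, a GABA transporter, differed by 2.72 (SE 0.45, edgeR adjusted p = 0.00366; 0.0504 without P5 control 1). Meis2 was higher by 2.53 (SE 0.49, edgeR adjusted p = 0.0101), with 1967 ± 571 CPM in the GAD class and 432 ± 359 CPM in the Slc6a9 class (SD, n = 5), but not without P2 control 2 or P5 control 1 (edgeR adjusted p up to 0.0711). Meis1 did not pass, at 0.63 (SE 0.20, edgeR adjusted p = 0.103).

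Other genes named in the GAD class were Dach2 (3.08), a transcriptional cofactor, the potassium channel Kcnh5 (2.81), the synaptotagmins Syt7 (2.79) and Syt6 (2.73), and the adhesion molecules Alcam (3.20), Pcdh9 (3.11), Cntn5 (2.93) and Cntn3 (2.68), all on the log2 scale. Ralyl (2.90), AI593442 (3.14), Grb14 (2.82) and Hmcn1 (2.72) were also higher. Ralyl and Grb14 lost their calls without P2 control 2, P5 control 1 or P5 control 2 (edgeR adjusted p up to 0.0773 and 0.197), and Hmcn1 without P2 control 2 or P5 control 1 (up to 0.171). Grb14 ranged from 1.88 (without P5 control 1) to 8.85 (without P2 control 1). Of 18 receptor genes tested 7 were higher and 0 lower, with a list median of 0.96 against 0.00 for all genes tested. They included the AMPA receptor subunit Gria1 (1.53) and the GABA receptor subunit Gabra2 (1.53). Of 9 pan-amacrine factors tested 4 were higher, Tfap2a (1.72), Tfap2b (1.38), Elavl4 (1.60) and Lmo4 (1.03), and Tfap2c was lower (-1.06). Of the list genes named here, Tfap2a and Gria1 were called in 5 of 5 fits that left out a library. Tfap2b and Gabra2 lost their calls without P5 control 1, Tfap2c without P5 control 2, Elavl4 without P2 control 2 or P5 control 2, and Lmo4 without P2 control 1 or 2 (edgeR adjusted p up to 0.0736).

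Btg2, Nfix and Nfib were higher in the Slc6a9 class. Btg2, a gene of cells leaving the cycle, stood at 285, 187, 250, 214 and 77.5 CPM there and at 108, 84.2, 88.3, 52.8 and 13.6 CPM in the GAD class. Its log2 fold change was -1.60 (SE 0.20, edgeR adjusted p = 0.00117), lower in the GAD class in 5 of 5 libraries, again a condition of being named. Nfix differed by -2.45 (SE 0.35, edgeR adjusted p = 0.00154) and Nfib by -2.11 (SE 0.31, edgeR adjusted p = 0.00192). Of 6 specification factors tested, 4 were lower in the GAD class, among them Prdm13 (-1.76), Ptf1a (-1.36) and Neurod4 (-1.36). The list median was -1.36. Ptf1a had no UMI in the Slc6a9 class of either P5 library and was lower in the GAD class in 3 of 5 libraries, those of P2. Of 17 subtype factors tested 7 were lower, with Ebf3 (-1.65), Ebf1 (-1.48), Prox1 (-1.45) and Tcf4 (-1.23) among them, and 3 were higher.

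Of 5 neurogenic markers tested, 3 were higher in the Slc6a9 class, Btg2 and Gadd45a among them. Cldn5 from the vascular list was also higher in that class (-2.30). None of 5 rod markers tested passed, and their median log2 fold change was -0.50. P5 control 1, which entered the contrast, had many cells with rod UMIs. The part of these other cells in the class difference was not tested. The other named genes higher in the Slc6a9 class were Gamt (-1.98), BC034090 (-1.98), Chodl (-1.82), Ppp1r14a (-1.80), Zfp423 (-1.73), Oprm1 (-1.62), Cacna2d3 (-1.58), Grik3 (-1.53) and Rhbdl3 (-1.49). Chodl, Gamt and Ppp1r14a, like Cldn5 and Ptf1a, were among the genes with the largest ratio of cluster 13 to the next cluster. Chodl, Gamt and Ppp1r14a stood at 362, 222 and 244 CPM in cluster 13, against 24.7, 19.5 and 18.5 CPM in cluster 6, the next. Oprm1, Cacna2d3, Rhbdl3 and Ebf1 lost their calls without P2 control 2, P5 control 1 or P5 control 2, with edgeR adjusted p up to 0.184, 0.123, 0.0723 and 0.188. Oprm1 was then at -1.01 without P5 control 1. Prox1 and Tcf4 lost theirs without the same 3 libraries (up to 0.178 and 0.239), Gadd45a without P5 control 1 or 2 (up to 0.157), and Cldn5 without P2 control 1 or 2 (up to 0.0596). Prdm13 and Ptf1a lost theirs without P2 control 2 (edgeR adjusted p = 0.0562 and 0.128).

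The class difference changed when cells were sorted by Slc6a5. The Slc6a9 class cannot be read as glycinergic cells alone, since Slc6a9 was found in 6.76% of rods and 4.22% of amacrine cells after thinning. Cells with Gad1 or Gad2 and without Slc6a5 were set against cells with Slc6a5 (chosen after seeing the data; 7 libraries with at least 10 cells of a class). With this, 135 genes were called. The minimum of cells and the libraries moved together with the definition. At 10 cells of a class, the Slc6a9 contrast kept the call of 20 of the 22 named genes it tested. In the Slc6a5 contrast only 7 of the 28 named genes tested kept their call, BC034090, Cntn3, Cntn5, Grb14, Pcdh9, Ralyl and Syt7. Lhx9 then stood at 0.01, Tfap2a at -0.18 and Nfix at -0.25 on the log2 scale. Neurod2, a known factor of a glycinergic type, differed by -0.65 (edgeR adjusted p = 0.00482) under that definition and Prox1 by -0.69 (edgeR adjusted p = 0.0365). In the main Slc6a9 contrast, at 20 cells of a class, leaving out a library gave 96 (without P5 control 1) to 480 calls. The class difference itself differed between the P5 and P2 libraries for 140 genes (1.9%), 81 (1.1%) with a higher and 59 (0.799%) with a lower signed log2 value (GAD class less Slc6a9 class) at P5. This count was 39, 282 and 31 without P2 controls 1, 2 and 3, 42 with DESeq2 and 0 in edgeR without the library block (294 at an unadjusted p under 0.05).

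For the constructs, the electroporated genes were read first. Meis1 in amacrine cells was at 773, 534, 377 and 246 CPM in P2 controls 1 to 4, at 3676 and 2935 CPM in P2 MEIS1, and at 1828 and 1053 CPM in the P2 combination. All 4 lay above every P2 control. At P5 it was 511, 208, 153 and 155 CPM in controls, 798 and 759 CPM in MEIS1, and 928 and 464 CPM in the combination, of which the last overlapped the controls. Meis2 was 1380, 2292, 1179 and 833 CPM in P2 controls, 3330 and 2122 CPM in P2 MEIS2, and 3251 and 3155 CPM in the P2 combination. The second MEIS2 library, which is the shallow one, overlapped the controls. At P5 Meis2 was 1369, 1350, 312 and 508 CPM in controls, 2204 and 1395 CPM in MEIS2 and 1351 and 748 CPM in the combination. Meis2 stood at 2936 to 3783 CPM in clusters 7, 9 and 17 and at 413 and 344 CPM in clusters 6 and 13. Cluster 7 held 36.5%, 29.0%, 5.16% and 15.9% of amacrine cells in these controls, 31.1% and 16.9% in MEIS2, and 9.79% and 15.15% in the combination. The part of cluster makeup in the Meis2 levels was not tested. Whether molecules from the constructs are counted under the symbols Meis1 and Meis2 is not given in the sources used here.

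No gene passed edgeR's quasi-likelihood test in any construct contrast in amacrine cells, out of 13097 tested (0% called), Meis1 and Meis2 included. For Meis1 the log2 fold change of MEIS1 against control at P2 was 2.75 (SE 0.52, edgeR adjusted p = 0.782). Counts at an unadjusted p under 0.05 were 543 (4.15%) for any construct at P2, 163 (1.24%) for any construct at P5, 111 (0.848%) for MEIS1 at P2, 962 (7.35%) for MEIS2 at P2 and 223 (1.7%) for the combination at P2. At P5 they were 181 (1.38%) for MEIS1, 206 (1.57%) for MEIS2 and 764 (5.83%) for the combination, and 125 (0.954%) for the difference between ages in the effect of any construct. DESeq2 called 59 genes for MEIS2 at P2, 1 each for MEIS1 and for any construct at P2, and 0 in the other 6. Without P2 MEIS2 1, leaving the shallow library alone in its group on the assumption that it varies like the others, edgeR called 373 genes for MEIS2 at P2.

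Of the markers, Gad2 differed by 0.64 (SE 0.29, edgeR adjusted p = 0.988) for any construct at P2, and by 0.47 (SE 0.29, edgeR adjusted p = 1) at P5. Gad1 differed by -1.69 (SE 0.76, edgeR adjusted p = 0.988) at P2 and -0.72 (SE 0.73) at P5, the opposite sign to Gad2, and Slc32a1 by 0.89 (SE 0.46, edgeR adjusted p = 0.988) and -0.33 (SE 0.45). Tfap2a differed by 0.57 (SE 0.31) and -0.18 (SE 0.31), Tfap2b by 0.09 (SE 0.31) and -0.16 (SE 0.31), and Slc6a9 by -0.44 (SE 0.49) and 0.08 (SE 0.49).

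GAD-positive shares were higher in construct libraries at P2 but missed the threshold after adjustment. The P2 controls 1 to 4 had 55.2%, 45.4%, 49.3% and 49.9%. The construct libraries had 63.1% and 56.8% (MEIS1), 57.6% and 70.8% (MEIS2), and 65.0% and 51.4% (combination). The 70.8% is that of P2 MEIS2 2, in which 137 of 401 amacrine cells were deep enough to be thinned. Of these 6, 5 lay above every control, and the group means were 60.8% ± 6.89 (SD, n = 6) and 49.9% ± 4.04 (SD, n = 4). The exact two-sided permutation test over 210 splits gave p = 0.0238, or 0.0571 after adjustment over 6 such tests, with 0.00476 the smallest p possible. With libraries grouped by the start of their cell names, all 6 construct libraries lay above every control, the difference was 12.4 percentage points and the adjusted exact permutation p was again 0.0571. Without the shallow library P2 MEIS2 2 the difference was 8.82 in place of 10.8 percentage points. At P5 the means were 34.7% ± 5.90 (n = 6) and 28.2% ± 3.60 (n = 4), with an exact permutation p of 0.0714 (adjusted 0.107). Slc6a9-positive shares differed by 0.29 percentage points at P2 (exact permutation p = 0.905) and -2.31 at P5 (exact permutation p = 0.39).

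**Figure D3:**
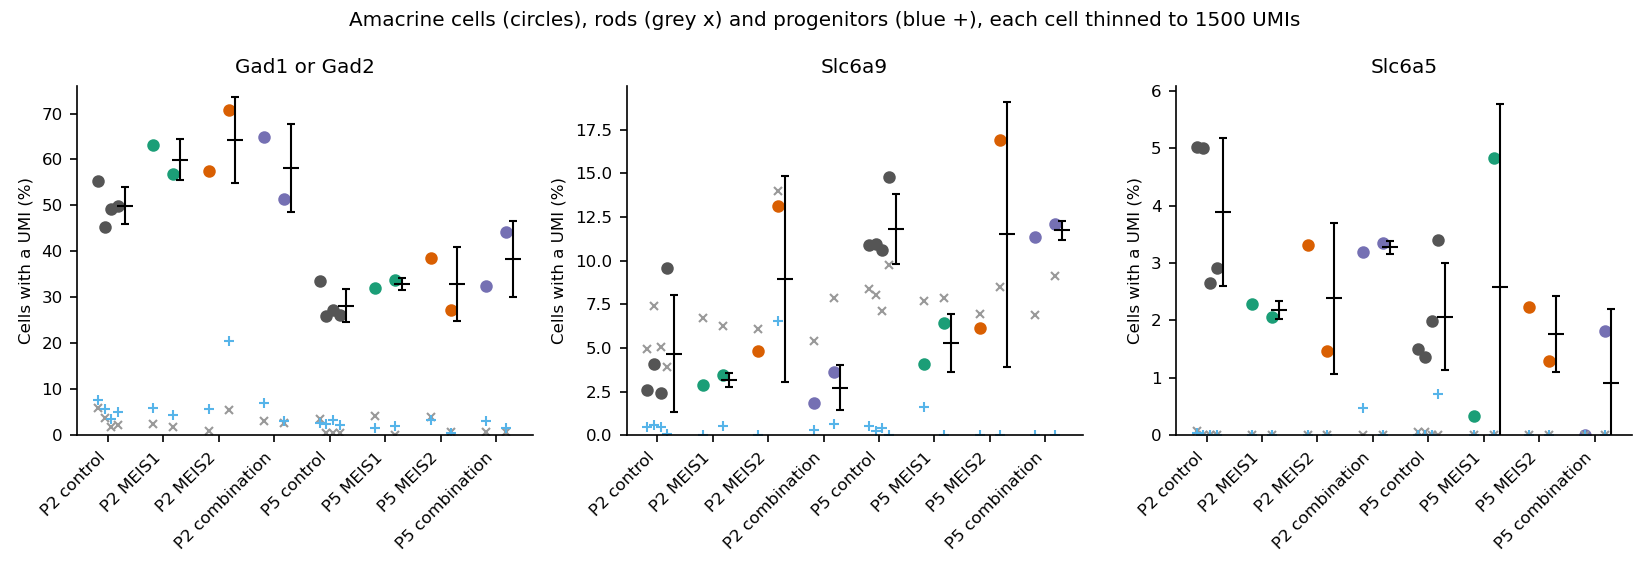
Percent of cells with a UMI of Gad1 or Gad2, Slc6a9 or Slc6a5, each cell thinned to 1500 UMIs. Circles are amacrine cells of 1 library with mean and SD beside them, grey x are rods and blue + progenitors; the 4 P2 controls (45.4% to 55.2%) lie above the 4 P5 controls (26.0% to 33.6%) for Gad1 or Gad2.

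The share of amacrine cells among all cells did not separate constructs from controls. It was 34.5%, 17.1%, 18.1% and 9.53% in P2 controls and 14.8% to 28.8% in the 6 P2 construct libraries, with means of 19.8% ± 10.5 (n = 4) and 22.1% ± 5.46 (n = 6). The exact permutation p was 0.648 (adjusted over 3 tests 0.957). At P5 the controls had 13.8%, 3.92%, 2.71% and 4.49% and the construct libraries 2.72% to 11.9%, with an exact permutation p of 0.957. The P5 libraries with the most rod-marker UMIs in amacrine cells, control 1, MEIS1 1 and MEIS2 1, had the highest shares. Without amacrine cells that had at least 3 rod UMIs, these 3 had 1.56%, 2.43% and 0.88%, and the other 7 P5 libraries 2.49% to 5.52%. The filter itself took 81.6% to 90.6% of amacrine cells in these 3 and 3.23% to 31.6% in the other 7.

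**Figure D4:**
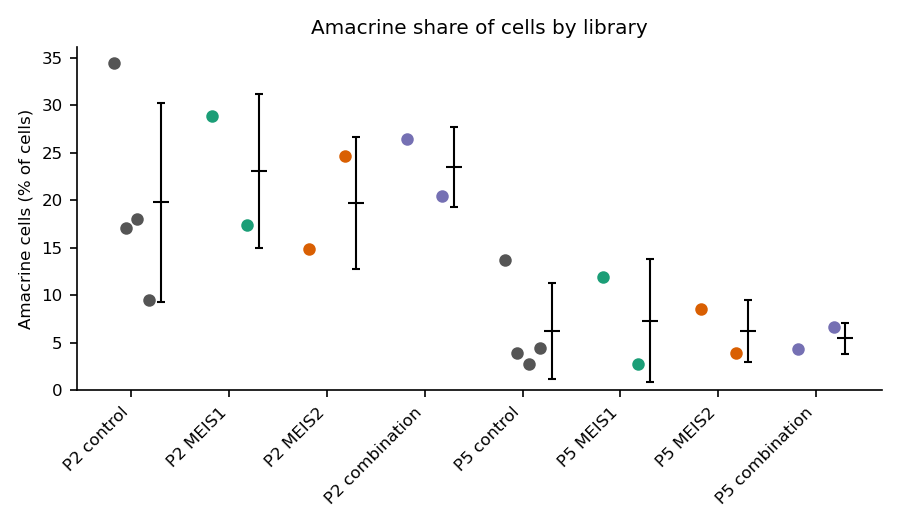
Amacrine cells as a percent of all cells in each library (points), with the mean and SD of each group beside them. P2 controls span 9.53% to 34.5% and P5 controls 2.71% to 13.8%.

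Between ages, the control shares of amacrine cells were 19.8% ± 10.5 at P2 and 6.22% ± 5.08 at P5 (n = 4 each), and 3 of the 4 P5 controls lay below every P2 control. The difference was -13.6 percentage points, and -16.98 to -8.66 with a library left out. Without amacrine cells with at least 3 rod UMIs, all 4 P5 controls (1.56% to 3.71%) lay below every P2 control (7.41% to 30.9%), with an adjusted exact permutation p of 0.0857. That filter took 90.1% of the amacrine cells of P5 control 1, the library that had overlapped, and 8.84% to 24.0% in P2 controls. The separation after filtering is therefore no independent support. With all amacrine cells, the exact permutation p over 70 splits was 0.0571 (adjusted 0.171), and the smallest possible is 0.0286. An edgeR fit of cell numbers gave a log2 fold change of -1.67 (adjusted p = 0.02). GAD-positive shares of P5 controls 1 to 4 were 33.6%, 26.0%, 27.2% and 26.1%, all below every P2 control. Slc6a9-positive shares were 10.9%, 10.96%, 10.6% and 14.8% at P5 against 2.57%, 4.08%, 2.43% and 9.55% at P2, all above. Each gave the smallest exact permutation p of 0.0286 (adjusted 0.0571). The P5 shares of Slc6a9 in rods of these controls were 7.12% to 9.74%, and at P2 3.89% to 7.41%.

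Gene by gene, edgeR called 52 genes (0.397% of 13097) between P5 and P2 controls, 46 higher (0.351%) and 6 lower (0.0458%), and 1166 (8.9%) were under an unadjusted p of 0.05. Of 27 subtype factors tested 3 rose, Nfix, Ebf1 and Ebf3, against 0 of 9 pan-amacrine, 6 specification, 6 GABA and 3 glycine genes. Nfix was at 31.5, 25.3, 13.7 and 57.2 CPM in P2 controls and at 151, 511, 502 and 1670 CPM in P5 controls, a log2 fold change of 4.37 (SE 0.76, edgeR adjusted p = 0.0144). Ebf1 was at 154, 165, 158 and 270 CPM against 845, 786, 535 and 831 CPM, a change of 1.90 (SE 0.34, edgeR adjusted p = 0.0164). Ebf3 rose by 2.11 (SE 0.40, edgeR adjusted p = 0.0243). Nfix, Ebf1 and Ebf3 were high in clusters 6 (168, 400 and 163 CPM) and 13 (81.2, 313 and 92.1 CPM) and at most 12.5 CPM in the others. Cluster 6 held 24.5% of amacrine cells in P5 control 1 and 71.6% in P5 control 4, the lowest and highest P5 controls for Nfix. The part of cluster makeup in these changes was not tested. None of the 3 overlapped between ages, but they were picked by their calls in this comparison. The share of all genes without overlap is not given here. All 3 lost their calls without P2 control 1, 2 or 3, Ebf1 and Ebf3 also without P5 control 4, and Ebf3 without P5 control 2 (edgeR adjusted p up to 0.0811 for Nfix and Ebf1 and 0.128 for Ebf3). Of 9 subtype label genes tested, Megf11 rose by 4.27 (SE 0.74, edgeR adjusted p = 0.0144), and lost its call without P2 control 1, 3 or 4 (edgeR adjusted p up to 0.0881).

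Among the other called genes, Mgll, which breaks down an endocannabinoid, was at 3.001, 5.96, 1.67 and 4.26 CPM at P2 and at 49.9, 86.0, 31.6 and 92.7 CPM at P5. The change was 4.09 (SE 0.38, edgeR adjusted p = 6.59e-05). Cacna2d3, a calcium channel subunit, rose by 2.35, the neuronal splicing factor Rbfox3 by 2.10, the guidance molecule Sema5a by 1.69, and Nwd2 by 3.40. Slc2a13 (3.31), Fam19a5 (1.41) and B3gat1 (2.25) also rose. Rnd3, a GTPase of cell shape, fell by 1.91, and the sterol synthesis genes Idi1 and Msmo1 fell by 2.74 and 1.91. Msmo1 lost its call in 4 of 8 fits that left out a library, without P2 controls 1, 3 or 4 or P5 control 2 (edgeR adjusted p up to 0.0759). B3gat1 lost it without P2 control 1 or 3 (up to 0.0716) and Rbfox3 without P2 control 1 (0.0521).

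**Figure D5:**
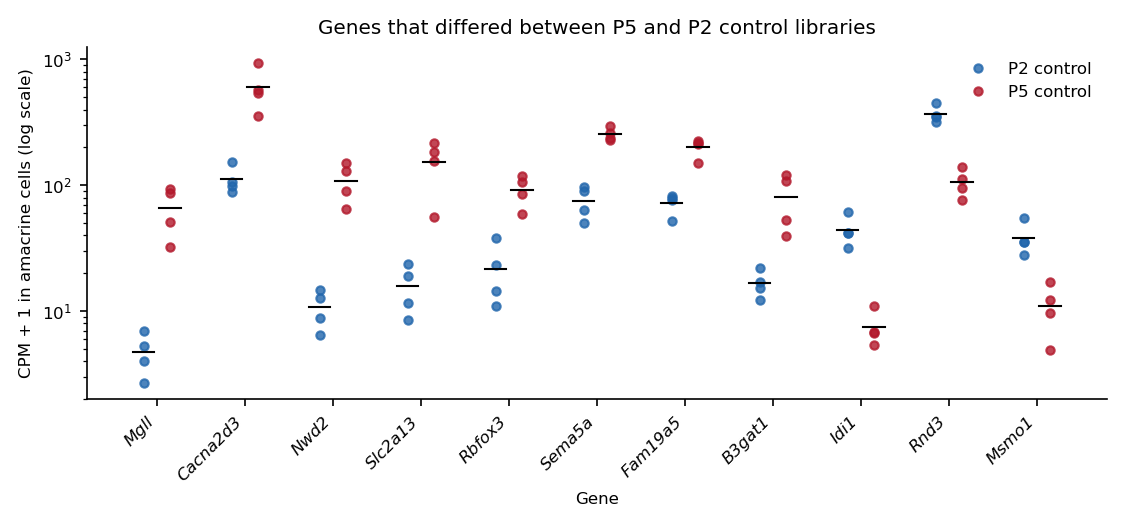
Levels of the 11 genes named for P5 against P2 controls, as CPM + 1 on a log axis, with 1 point per library and a bar at the mean of 4. The P2 and P5 points of Mgll (1.67 to 5.96 and 31.6 to 92.7 CPM) do not overlap, nor do those of Rnd3. All 11 were chosen by their calls in this comparison.

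Gad2 stood at 598, 356, 474 and 433 CPM in P2 controls and at 153, 119, 217 and 246 CPM in P5 controls. The change of -1.43 (SE 0.32, edgeR adjusted p = 0.0664) missed the threshold. The libraries did not overlap, and the share of all genes without overlap is not given here. Tfap2a stood at -1.43 (SE 0.35, edgeR adjusted p = 0.107). The summed level of the 8 rod markers in amacrine cells was 375 to 549 CPM in P2 controls and 464 to 1840 CPM in P5 controls, and 0 of 7 tested passed. All 11 named genes kept their call without cells with at least 3 rod UMIs. The number of calls moved with the libraries used, from 8 without P2 control 1 to 155 without P5 control 3, the library rich in cluster 13. In cluster 6 alone it was 237 and in cells with at least 5 GFP UMIs 137, both chosen after seeing the data, and all 11 named genes kept their call in each.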

How the data were processed

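The authors deposited unnormalized UMI counts for each gene in each cell, made with Cell Ranger and Seurat 5 on mm10, per the submitters' processing notes. In all 79009 cells the counts were whole and summed to the deposited total. The deposited table of cells gives the authors' cell type and cluster, counts of genes and UMIs, and the mitochondrial percent. No doublet caller was run, and alternatives left out cells of high depth or with rod UMIs. Members, gene lists and tests were chosen with earlier results of these data known. Counts were summed per library over amacrine cells (at least 20), filtered by filterByExpr, scaled by TMM and fitted in edgeR 4.0.16 (R 4.3.3) with 8 group means. Calls used a Benjamini-Hochberg adjusted p under 0.05, two-sided. DESeq2 1.42.0 was an alternative. Fits were tested on simulated data. Shares were compared by exact permutation tests. Named genes: list genes; the 20 leading identity genes; in group contrasts, called genes with mean log2 CPM of at least 4, up to 8 each way between ages; in the class contrast, the 15 largest each way with mean log2 CPM of at least 5 and 1 sign in all 5 libraries. Some genes that this rule names are not reported here.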

Additional observations from a re-analysis of the deposited data

Results flagged for a closer look

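Several quantities were examined in the P2 and in the P5 controls for a single library far from the rest. Of 34 such sets of 4 values, 5 held one, where chance alone gives about 1 in 20 for a single set. The sets come from the same 8 libraries and some quantities depend on each other, so they are not 34 independent tests. P5 control 1 had an amacrine share of 13.76% against 2.708% to 4.492% in the other 3 P5 controls. Without amacrine cells that had at least 3 rod UMIs it had 1.56%, against 2.486% to 3.706%. The filter took 90.1% of its amacrine cells and 8.39% to 31.6% in the others, so its place after filtering was set by the filter. P5 control 1 also had a GAD-positive share of 33.56% against 26.03% to 27.15%, and Meis1 at 510.6 CPM against 152.9 to 208.0 CPM. P5 control 4 had a Slc6a9-positive share of 14.77% against 10.6% to 10.96%. P5 control 3 had 50.97% of its amacrine cells in cluster 13 against 7.159% to 9.091%.

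The class difference itself differed between ages. For 140 genes the GAD class against Slc6a9 class contrast differed between 2 P5 and 3 P2 libraries at an edgeR adjusted p under 0.05 (1.9% of 7384), 81 of them with a higher signed value (GAD class less Slc6a9 class) at P5. Without P2 controls 1, 2 and 3 in turn the count was 39, 282 and 31, with DESeq2 42, and in edgeR without the library block 0 (294 at an unadjusted p under 0.05). The P5 less P2 value was 1.53 for Tfap2b (SE 0.39, edgeR adjusted p = 0.0406), -2.02 for Ebf1 (edgeR adjusted p = 0.0104) and -3.00026 for Neurod2 (edgeR adjusted p = 0.00283). Tfap2b was not called without P2 control 1 or 3 (edgeR adjusted p = 0.258 and 0.226) and Ebf1 not without P2 control 3 (edgeR adjusted p = 0.161). With at least 10 cells of a class none of these 3 genes was called (edgeR adjusted p = 0.0910, 0.894 and 0.514 for Tfap2b, Ebf1 and Neurod2), nor without the library block or with Slc6a5 in place of Slc6a9.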

How the results depend on the processing

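The 8 construct comparisons other than MEIS2 at P2 had 0 to 2 genes called in each fit run. They reached 1 (any construct and MEIS1 at P2, DESeq2), 2 (any construct at P2, groups from barcode starts), 1 (MEIS2 at P5 without cells with at least 3 rod UMIs) and 1 (combination at P5, replicate block), and leaving out a library gave 0 to 2. For MEIS2 at P2 DESeq2 gave 59 calls, no filter 3, and leaving out a library 0 to 373. The 52 genes between ages became 192 (DESeq2), 88 (replicate block), 237 (cluster 6 only), 137 (at least 5 GFP UMIs) and 8 to 155 (a library left out), with 8, 15 and 28 without P2 controls 1, 3 and 4 and 33, 155 and 29 without P5 controls 2, 3 and 4. Of 198 refits of the 11 named age genes, 191 kept the call, and of 390 of the 30 named class genes 302 did, with 79 in the same direction but not called and 9 reversed. Without the library block 7 of the 30 were called, and in construct libraries 8 of the 21 tested. The 328 class genes became 670 (no filter), 12 (no replicate block, which here drops the library), 146 (thinned), 126 (construct libraries), 135 (Slc6a5) and 96 to 480 (a library left out), with 139 without P2 control 2 and 96 and 157 without P5 controls 1 and 2. Their difference between ages, 140 genes, became 42 (DESeq2), 0 (edgeR, no replicate block; 294 at an unadjusted p under 0.05, and 764 with the block), 14 (at least 10 cells), 8 (Slc6a5) and 31 to 282 (39, 282 and 31 without P2 controls 1, 2 and 3). With Slc6a5, 9 named genes changed sign without a call: Btg2 0.21, Syt6 -0.063, Prdm13 0.072, Ppp1r14a 0.58, Oprm1 0.085, Gamt 0.56, AI593442 -0.19, Rhbdl3 0.054 and Chodl 0.33. The cause was not tested.

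The amacrine share changed sign on the log2 scale with the replicate block (-0.19 at P2, -0.31 at P5) and with a library left out (-1.07 to 7.24 percentage points at P2, -1.04 to 2.65 at P5). Between ages, edgeR on cell numbers passed at -1.67 and, with the replicate block, at -1.77. The Slc6a9 share at P2 changed sign to -0.11 (1000 UMIs), -0.85 (3000 UMIs), -2.23 (not thinned), -0.34 (without cells with rod UMIs), -0.15 (barcode starts), -1.07 (5 GFP UMIs), -0.54 (cluster 6) and -1.34 to 1.92 (a library left out), and at P5 to 2.24 (3000 UMIs) and 8.73 (not thinned). None of these passed. Libraries of 1 replicate number deviated together in some pairs of groups and not in others (correlations from -0.20 to 0.60, with P5 control, MEIS1 and MEIS2 at 0.45 to 0.60), so the numbers were not taken as pairs. The class contrast could not be fitted at 20 cells in construct libraries or without cells with rod UMIs.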
